A study of Oryctolagus cuniculus with 15 samples.

Results

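Cytosolic ribosomal protein genes encode the proteins that, together with ribosomal RNA, build the small and the large subunit of the ribosome. In the deposited gene table they were found by symbol, as RPL or RPS followed by a number, with RPLP0, RPLP1 and RPSA, and without the RPS6K kinases. This gave 68 of 23428 genes, 42 of the large and 26 of the small subunit, and no measured value entered the choice. Every one of them except RPL10L, which had 0 counts in each library, had enough counts to be tested in all comparisons.

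Ribosomal proteins are made in the cytosol, imported into the nucleus and assembled with ribosomal RNA in the nucleolus, and cells keep their amounts close to one another because surplus protein is degraded. Their mRNAs are among the most abundant of most cells and carry a terminal oligopyrimidine motif, through which LARP1 and the kinase MTOR set how much of them is translated. An mRNA level is therefore not a measure of how many ribosomes a cell holds. Several members have a role outside the ribosome: RPSA is the precursor of the laminin receptor, RPL5 and RPL11 bind the p53 ligase MDM2, and RPS27L is a p53 target gene. Members whose symbols end in L or L1 are paralogs of a main form, some of them restricted to a tissue.

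Bulk RNA-seq was performed on keratocytes, the resident cells of the corneal stroma, isolated from New Zealand white rabbits, used at first passage and kept for 6 days without serum. In 2DC, the cells grew on collagen-coated dishes and were incubated in digestion medium before lysis, and in 2DC_L such dishes were lysed directly. In 2DF, the cells lay on top of a fibrillar collagen matrix, and in 3DF and 3DF_50 they were embedded in one, at 100000 and 50000 cells per matrix, with digestion before lysis in these 3 conditions. There were 3 libraries per condition, each of pooled dishes or matrices, described as separate experiments of cultured cells, so the spread given here is that between such experiments and not between tissues. The comparison of 3DF_50 and 2DC_L changes the substrate, the geometry, the cell density and the digestion step together, and these cannot be told apart in it. The paper also describes a lower effective cell density in 3D, so 3DF vs. 2DC and 3DF vs. 2DF change density as well.

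The libraries held 14626982 to 31804255 counted reads. The 6 keratocyte markers had summed levels of 20040 to 43020 FPKM. The 9 markers of corneal epithelium in the table summed to 0.268 to 1.32 FPKM in 2DC and 8.30 to 13.4 FPKM in 3DF, with KRT12 at 0 in each 2DC and 2DC_L library. Fewer cells of a type and less RNA per cell cannot be told apart in bulk RNA. The 10 genes with the most counts over the 15 libraries together took 11.4% to 27.8% of a library's counts, least in 3DF_50. Scaling by library size and scaling by TMM (edgeR's trimmed mean of M values) place the conditions differently. Changes are given after TMM, and the values by library size are given where they turn a median or a called member.

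Gene symbols did not capture the whole family. By their descriptions, 148 further rows of the table are ribosomal proteins without such a symbol, of which 134 had counts, and these can be processed copies, second loci or the main gene of a product. Of the 68 products with a named row, 23 had less than 90% of their counts in that row and 7 had less than 50%. The 7 were RPL13, RPL31, RPL32, RPL34, RPL38, RPS26 and RPS27, with RPL32 at 8.07% and RPL38 at 9.07%. A further 14 products had no named row at all, among them RPS2, RPS19 and RPS27A, and RPLP2, the partner of RPLP1 in the stalk, had 1 count in all, over its 2 rows. A level of these genes is that of the named row, and reads of near-identical copies may have been split or lost in counting. 18 of the members lie on unplaced scaffolds of oryCun2, and the rows of RPS21, RPL22 and RPL10L span no intron.

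The members were among the most abundant mRNAs of these keratocytes. Their median level over the 15 libraries was 304.8 FPKM (fragment counts scaled by gene length and by library size). For the 14036 genes tested over the 5 conditions it was 7.19 FPKM. Of the members, 56 were among the 500 most abundant genes. Members of the small subunit had a median of 333.3 FPKM and those of the large subunit one of 271.6 FPKM. RPLP1, an acidic protein of the stalk that recruits translation factors, was the most abundant at a mean of 1404 FPKM. RPS12 and RPLP0, the base of the stalk, followed at 680.3 and 669 FPKM. At the other end, RPL3L, a form known from striated muscle, had 1.06 FPKM, RPL38 had 3.79 FPKM and RPL22 had 19.4 FPKM. The low RPL38 value is that of a row with 9.07% of the reads of its product.

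**Figure D1:**
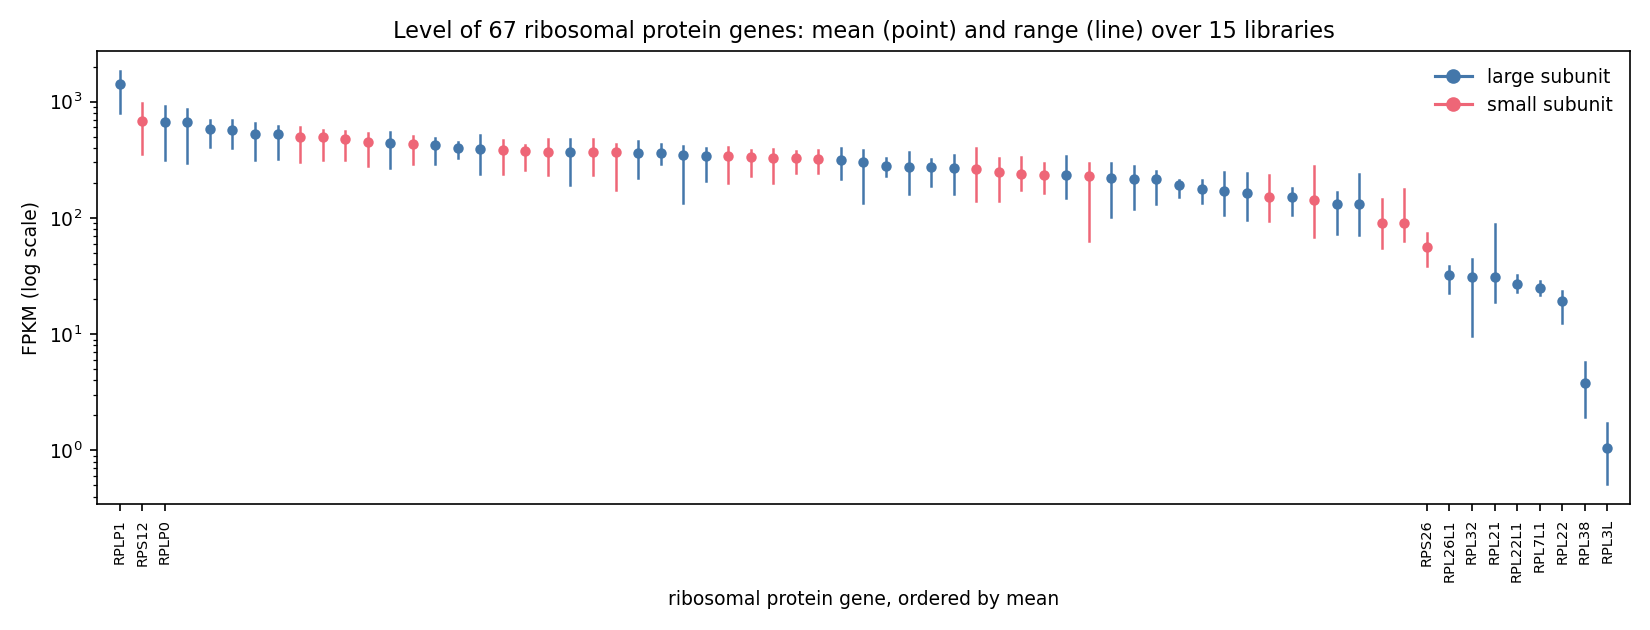
Level of the 67 ribosomal protein genes with counts, in FPKM on a log scale, ordered by mean. The point is the mean and the line the range over the 15 libraries, in blue for the large and in red for the small subunit, with the 3 highest and the 9 lowest named. Most members lie above 100 FPKM, and RPL3L is lowest.

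As a whole, the share of the RNA taken by the family overlapped between the conditions. The named genes held 1.59% ± 0.0258 of all counts in 2DC (mean ± SD, n = 3), 1.64% ± 0.0891 for 2DC_L, 1.504% ± 0.0866 for 2DF, 1.57% for 3DF and 1.58% for 3DF_50. In 3DF_50 the libraries ranged from 1.23% to 1.87%, and the ranges of the conditions overlapped in all 6 comparisons. With the 10 most abundant genes left out of the total, the mean share ran from 1.81% in 3DF_50 to 2.20% in 2DC_L, and the ranges still overlapped. With the unnamed rows added, the share in 2DC was 2.15%.

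A pair of libraries stood apart in these genes. In 3DF_50 replicate 2, the median member lay 0.57 below its own mean over the 15 libraries on the log2 scale, and 62 of 67 members were below their mean. In 3DF replicate 1, the median was close to the others, but members scattered: the interquartile range of their deviations was 0.593, against 0.0919 to 0.302 in the other 14 libraries. All genes scattered more in this library too, at 0.765 against 0.332 to 0.566. There, RPS28 lay 1.79 and RPL32 lay 1.62 log2 units below their means, while RPS6 and RPS21 lay 1.03 above theirs. Values that moved most when either library was left out are also given without it.

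**Figure D2:**
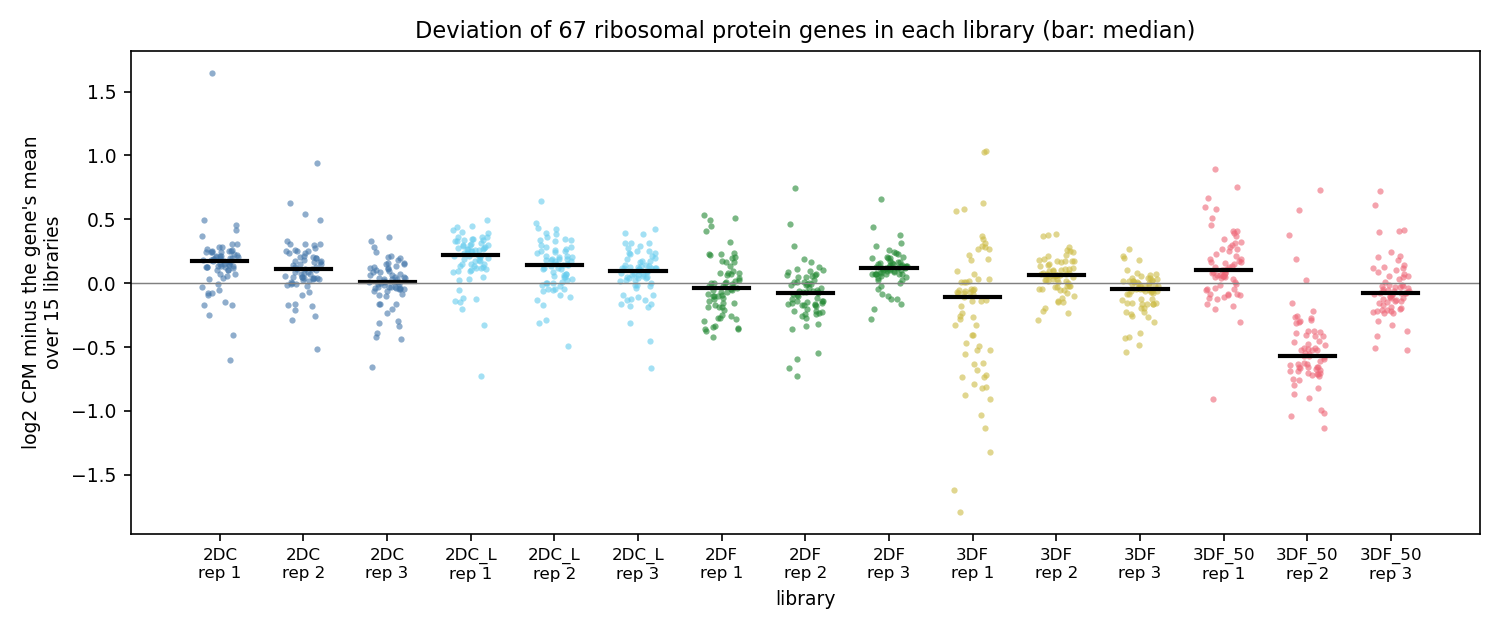
Deviation of each of the 67 tested ribosomal protein genes from its own mean over the 15 libraries, in log2 CPM after TMM, with a bar at the median of each library. In 3DF_50 replicate 2 the bar lies at −0.57, and in 3DF replicate 1 the points are the most scattered.

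The comparison of 3DF vs. 2DC asks what embedding in fibrillar collagen changes against a coated dish. Of 67 members, 2 passed the test, both lower in 3DF and both of the small subunit, where 15.4% of all genes passed it, 8.38% as lower in 3DF. Here and below, a gene passes with an edgeR adjusted p of at most 0.05 over all genes tested. RPSA was at 277, 395 and 311 FPKM in 2DC and at 245, 219 and 176 FPKM in 3DF. Its 3DF libraries were all below its 2DC libraries, with a log2 fold change of −0.63 (SE of 0.173, adjusted p = 0.0424 with edgeR). RPS16, whose tail reaches the decoding centre, was named after its values were seen. It was at 427, 428 and 468 FPKM in 2DC and at 233, 328 and 333 FPKM in 3DF, again without overlap, with a log2 fold change of −0.57 (SE of 0.157, adjusted p = 0.0414 with edgeR). Neither call was firm. Leaving out 1 library at a time kept RPSA in 2 of 6 fits and RPS16 in 1 of 6. With all rows of a product summed, RPSA had −0.46 (edgeR adjusted p = 0.105). In the 1 pair of libraries with a shared name prefix, E6, RPSA was at −0.33 and RPS16 at −0.996. The 3DF library of this pair is replicate 1, which stood apart. Without that library RPSA was at −0.73 and RPS16 at −0.42 in the fit.

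Across the family the shift in 3DF vs. 2DC was small. The median log2 fold change of the members was −0.13 against 0.012 over all genes tested, and 48 of 67 members were below 0. By library size alone the median was 0.050 and that of all genes 0.19, so that the sign turned while the members stayed 0.14 below all genes. The large subunit had a median of −0.22 and no call, and the small subunit one of −0.07. The lowest members were RPL21 at −0.76, RPL35A at −0.65 and RPSA, and the highest were RPL34 at 0.53, RPS21 at 0.45 and RPS6 at 0.34, none of these but RPSA past the test. RPL21 was at 0.17 without 2DC replicate 1, RPL35A at −0.34 without 2DC replicate 2 and at −0.40 without 3DF replicate 1, and RPS21 at 0.024 without 3DF replicate 1. RPS6, the small-subunit protein that the S6 kinases phosphorylate, was at 177, 74.0 and 88.2 FPKM in 3DF and 108, 73.1 and 84.9 FPKM in 2DC. Its higher mean in 3DF came from replicate 1, without which it was at −0.13. Without 3DF replicate 1, 4 members passed, all lower (RPSA, RPS16, RPS12 and RPL13), and 21.7% of all genes did. In this comparison 5 of 6 tested markers of corneal epithelium were higher in 3DF and 4 of 7 proliferation markers lower, and their part in the values of the members was not tested.

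In 2DF vs. 2DC, with cells on top of fibrils against a coated dish, 4 of 67 members passed the test against 14.4% of all genes. RPS27L and RPS29 were higher in 2DF, where 6.73% of all genes were, and RPLP0 and RPS12 were lower, where 7.63% were. RPS27L was at 64.7, 60.4 and 83.7 FPKM in 2DC and at 121, 94.4 and 94.9 FPKM in 2DF, without overlap, higher by 0.58 on the log2 scale (SE of 0.147, adjusted p = 0.0311 with edgeR). RPLP0 was at 881, 909 and 719 FPKM in 2DC and at 498, 550.2 and 699 FPKM in 2DF. The highest 2DF library of RPLP0 was just below the lowest 2DC library, and the log2 fold change was −0.52 (SE of 0.149, adjusted p = 0.0496 with edgeR).

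The other calls of this comparison were in the small subunit. RPS12 was at 802, 965 and 711 FPKM in 2DC and 566, 576 and 606 FPKM in 2DF, a log2 fold change of −0.50 (SE of 0.119, adjusted p = 0.0256 with edgeR). RPS29, a zinc-binding protein of the small subunit named after its values were seen, was at 218, 192 and 175 FPKM in 2DC and 325, 287 and 237 FPKM in 2DF. It did not overlap either, with a log2 fold change of 0.54 (SE of 0.131, adjusted p = 0.0264 with edgeR). Each of the 4 calls was kept in 2 of the 6 fits that left out a library, and RPLP0 with its rows summed had −0.48 (edgeR adjusted p = 0.0669).

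The median member in 2DF vs. 2DC was −0.12 against 0.0045 for all genes, with 46 of 67 below 0. With the prefix of the library names as a block over all 5 conditions it was 0.35, no member passed, and RPS12 read 0.27. These conditions share no prefix, so no value within a prefix could be had. In the block fit, 2DF was tied to other conditions only through prefix E5, shared by 2DF replicate 1 and 3DF_50 replicate 2. RPL21 at −0.91 and RPL35A at −0.60 were the lowest members, followed by RPLP0, and RPS27L, RPL3L at 0.58 and RPS27 at 0.57 the highest. For RPL21 the change came from 2DC replicate 1, at 88.8 FPKM against 25.4 and 23.0 FPKM in the other 2DC libraries and 18.9 to 27.9 FPKM in 2DF, and without that library it was at 0.014. RPL35A was at −0.29 without 2DC replicate 2. In this comparison 5 of 6 tested proliferation markers were lower in 2DF, at summed levels of 23.3 to 26.9 FPKM against 25.9 to 98.9 FPKM, and their part in the values of the members was not tested.

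In 3DF vs. 2DF, cells within against cells on top of fibrillar collagen, no member passed the test, where 6.05% of all genes did. These conditions share no name prefix, and geometry cannot be told apart from cell density in them. At an unadjusted p under 0.05 there were 5 members, and DESeq2 and limma called 0 each. The median was −0.05 against 0.011 for all genes, and 0.03 without 3DF replicate 1. By library size alone it was 0.0043 against 0.061 for all genes. With the prefix block it was −0.45, where 2DF was again tied in only through the E5 pair. RPL32 at −0.68, RPL3L at −0.52 and RPS29 at −0.45 were lowest, and RPS21 at 0.53, RPS6 at 0.49 and RPL5 at 0.43 were highest. Most of these extremes rested on 3DF replicate 1: without it RPS21 was at 0.097, RPS6 at 0.0057, RPL32 at −0.34 and RPL3L at −0.27, while RPS29 stayed at −0.45.

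Between the cell densities in 3D, RPS27L was the only member that passed the test in 3DF vs. 3DF_50. It was lower at the higher density, where 0.617% of all genes passed and 0.166% as lower. It was at 78.4, 84.7 and 82.0 FPKM in 3DF and at 145, 143 and 115 FPKM in 3DF_50, with every 3DF library below every 3DF_50 library. The log2 fold change was −0.74 (SE of 0.131, adjusted p = 0.0445 with edgeR), and 9 members had an unadjusted p under 0.05. Of the 6 fits with a library left out, 2 kept the call, and in the pair of libraries that share prefix E7 the difference was −0.44. Without 3DF replicate 1 it was −0.71 (edgeR adjusted p = 0.029), and without 3DF_50 replicate 2 no member and no gene at all passed. RPL32 at −0.95 and RPS27 at −0.51 were the other low members and RPS21 at 0.74, RPL10 at 0.65 and RPL9 at 0.59 the high ones. Without 3DF replicate 1, RPS21 was at 0.31 and RPL32 at −0.61, and without 3DF_50 replicate 2, RPL10 was at 0.40 and RPL9 at 0.39. The median was 0.044 against 0.013 for all genes, and −0.09 without 3DF_50 replicate 2. Scaled by library size alone it was −0.11, against −0.15 for all genes.

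Digestion before lysis, tested by 2DC vs. 2DC_L, left no call in the family, and 0.367% of all genes passed. Only 2 members had an unadjusted p under 0.05, and DESeq2 and limma called 0. Medians were −0.047 for the members and −0.0048 for all genes, with 52 of 67 members below 0. The most extreme members were RPS29 at −0.28, RPS21 at −0.24 and RPL3L at −0.24, and on the other side RPL21 at 0.96, RPL35A at 0.46 and RPS27L at 0.17. For RPL21 and RPL35A these rested on single libraries: RPL21 was at 0.025 without 2DC replicate 1 and RPL35A at 0.15 without 2DC replicate 2.

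**Figure D3:**
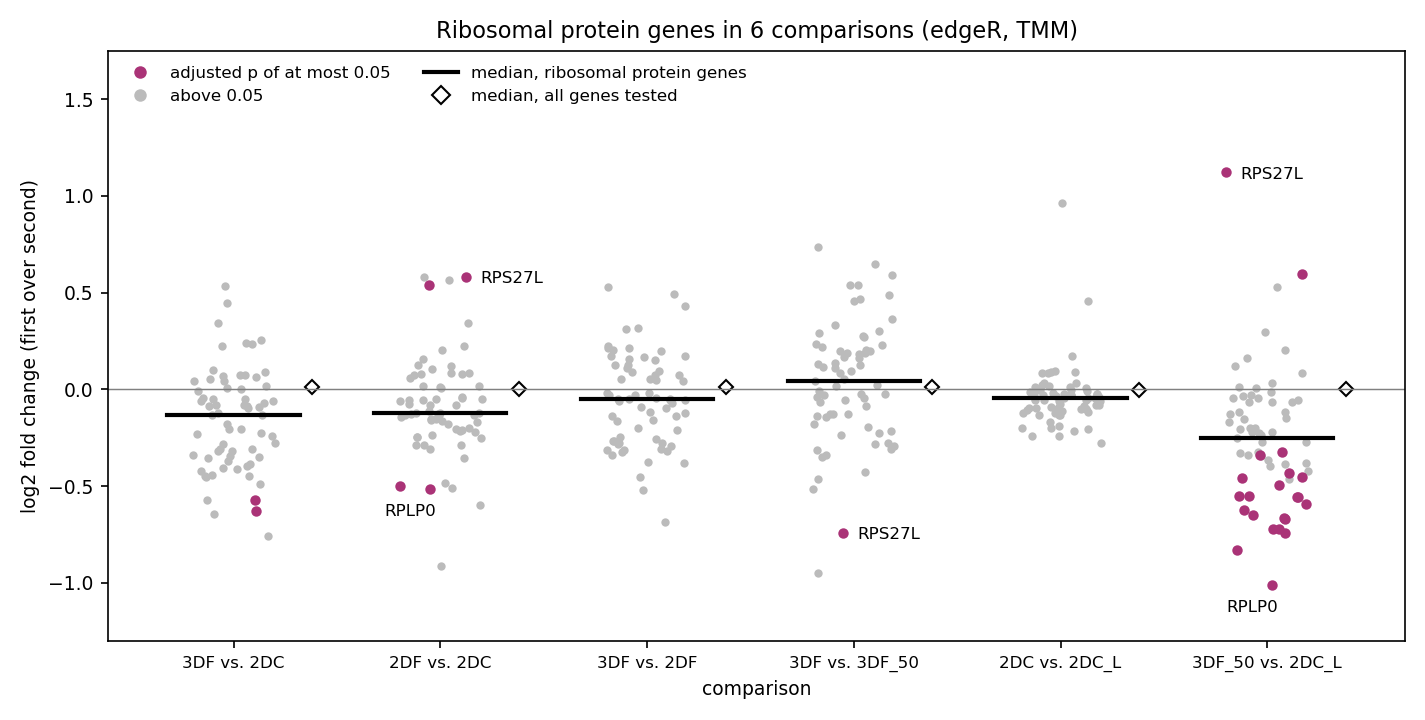
Log2 fold change of the 67 tested ribosomal protein genes in 6 comparisons (edgeR, after TMM), coloured where the adjusted p was at most 0.05, with the median of the members as a bar and that of all genes tested as a diamond. Calls number 2, 4, 0, 1, 0 and 22 from left to right, and RPS27L is the highest gene in 3DF_50 vs. 2DC_L at 1.12. By library size alone the medians of 3DF vs. 2DC, 3DF vs. 2DF and 3DF_50 vs. 2DC_L lie above 0 and that of 3DF vs. 3DF_50 below 0.

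The largest number of calls came in 3DF_50 vs. 2DC_L, low-density cells in 3D against directly lysed dishes. RPS27L was higher and RPLP0 lower, each by about 1 log2 unit, while 20 of 67 members passed as lower and 2 as higher. Of all genes 42.9% passed, 20.8% as higher and 22.1% as lower, so that the share of members called was below that of all genes while most of their calls after TMM were as lower. Scaled by library size alone 11 members passed, 9 of them as higher, on a scale where the median of all genes was 0.36. The share of all genes called on that scale is not given here. With a |log2 fold change| of at least 1, RPS27L and RPLP0 remained, where 13.5% of all genes did. Of the 20 lower members 14 were of the large and 6 of the small subunit. After TMM the median member was at −0.25 against 0.0040 for all genes, with 56 of 67 below 0, but by library size alone the median member was at 0.10 and all genes at 0.36. On that scale 18 of the 20 stayed below 0, RPL27 and RPL29 turned to 0.031 and 0.018, and RPLP0 and RPL9 alone were still called lower.

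RPS27L was at 68.6, 61.3 and 54.7 FPKM in 2DC_L against the 115 to 145 FPKM of 3DF_50 given above. The log2 fold change of 1.12 (SE of 0.117, adjusted p = 5.6e-05 with edgeR) was the highest of the family. It passed in each of 14 other settings, at 1.04 to 1.48, and in all 6 fits that left out a library. Over the 5 conditions its mean was highest in 3DF_50 at 134 FPKM, then 104 in 2DF, 81.7 in 3DF, 69.6 in 2DC and 61.5 in 2DC_L. Of these neighbours, 2DF and 3DF did not overlap but missed the test at −0.34 (edgeR adjusted p = 0.195), and the other neighbours overlapped. RPS27L lies on chromosome 17 at 9113426 to 9116840 of oryCun2, and its named row holds 82.0% of the reads of its product.

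Its main form RPS27, with its row at 49.1% of its product, was at 133, 118 and 139 FPKM in 2DC_L and at 232, 132 and 224 FPKM in 3DF_50. These overlapped in the library that stood apart. The log2 fold change was 0.60 (SE of 0.182, adjusted p = 0.024 with edgeR), and 0.81 (edgeR adjusted p = 0.000319) without 3DF_50 replicate 2. With all rows of the product summed it was 0.25 (edgeR adjusted p = 0.325), so the named row passed the test and its product did not.

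The mRNAs of RPLP0 and RPLP1 passed as lower. RPLP0, on chromosome 21 at 12356741 to 12360138, was at 905, 815 and 871 FPKM in 2DC_L and at 519, 318 and 447 FPKM in 3DF_50. Its log2 fold change was −1.01 (SE of 0.164, adjusted p = 0.000896 with edgeR), −0.96 with its rows summed, and −0.84 (edgeR adjusted p = 0.00113) without 3DF_50 replicate 2. RPLP0 passed in all 14 other settings, at −1.04 to −0.66. Means of RPLP0 were 864 ± 45.6 FPKM in 2DC_L, 836 ± 103 in 2DC, 634 ± 48.1 in 3DF, 582 ± 105 in 2DF and 428 ± 102 in 3DF_50 (SD, n = 3). The 2 dish conditions overlapped, as did 2DF with 3DF and with 3DF_50. RPLP1 was at 1766, 1695 and 1820.4 FPKM in 2DC_L and at 1288, 792 and 1117 FPKM in 3DF_50, and its log2 fold change was −0.72 (SE of 0.161, adjusted p = 0.0053 with edgeR). By library size alone RPLP1 had −0.37 and no longer passed.

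Among the remaining members of the large subunit, RPL9 had the lowest value. It was at 262, 283 and 229.9 FPKM in 2DC_L and at 187, 102 and 147 FPKM in 3DF_50, with a log2 fold change of −0.83 (SE of 0.183, adjusted p = 0.00499 with edgeR), and it passed in 14 of 14 other settings. RPL10, a late-joining protein near the catalytic centre, was at 828, 728 and 746 FPKM and at 603, 294 and 496 FPKM, with −0.72 (SE of 0.215, adjusted p = 0.0215 with edgeR). Other lower members, chosen for their calls, included RPL3, RPL4, RPL6, RPL7, RPL10A, RPL12, RPL13, RPL27 and RPL29, from −0.66 to −0.32. Without 3DF_50 replicate 2, RPL27 lost its call at −0.23 (edgeR adjusted p = 0.114), and RPL10 was at −0.48. RPL5, RPL11 and RPL13A were not called, at −0.22, −0.39 and −0.01.

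In the small subunit RPSA was at 321, 398 and 319.7 FPKM in 2DC_L and at 289, 140.1 and 191 FPKM in 3DF_50. Its log2 fold change was −0.74 (SE of 0.22, adjusted p = 0.0212 with edgeR), and −0.53 (edgeR adjusted p = 0.0541) without 3DF_50 replicate 2. RPS12 at −0.67, RPS16 at −0.56, RPS21 at −0.55 and RPS20 at −0.46 also passed. Without 3DF_50 replicate 2, RPS12 was at −0.44, RPS21 at −0.31 and RPS20 at −0.28. Of the 6 fits with a library left out, RPS20 passed in 2, RPS21 in 3 and RPSA in 3. RPS3, RPS4X and RPS6 had −0.33, −0.38 and −0.12 and did not.

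3DF_50 replicate 2 carried a large part of the shift of the family. Without it the median was −0.11, 41 of 67 members were below 0, and 22 passed, 17 as lower and 5 as higher, of which 19 also passed with all libraries. In that fit 35.5% of all genes passed. Within the 2 name prefixes that both conditions share, the median member was at −0.0016 in E3, with 34 of 67 below 0, and at −0.15 in E7, with 43 below 0. RPS27L was higher by 1.25 and 1.08 log2 units in these pairs of libraries. RPLP0 was at −0.64 and −0.95, RPL9 at −0.59 and −0.63, RPLP1 at −0.39 and −0.69, and RPSA at −0.46 and −0.73. For each of these genes the libraries of the 2 conditions did not overlap. The same sign in both pairs was thereby fixed and adds nothing to the calls. The median member did not move away from 0 in E3. All 7 proliferation markers were lower in 3DF_50, at summed levels of 29.0 to 33.2 FPKM against 49.2 to 64.6 FPKM in 2DC_L, and their part in these changes was not tested.

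**Figure D4:**
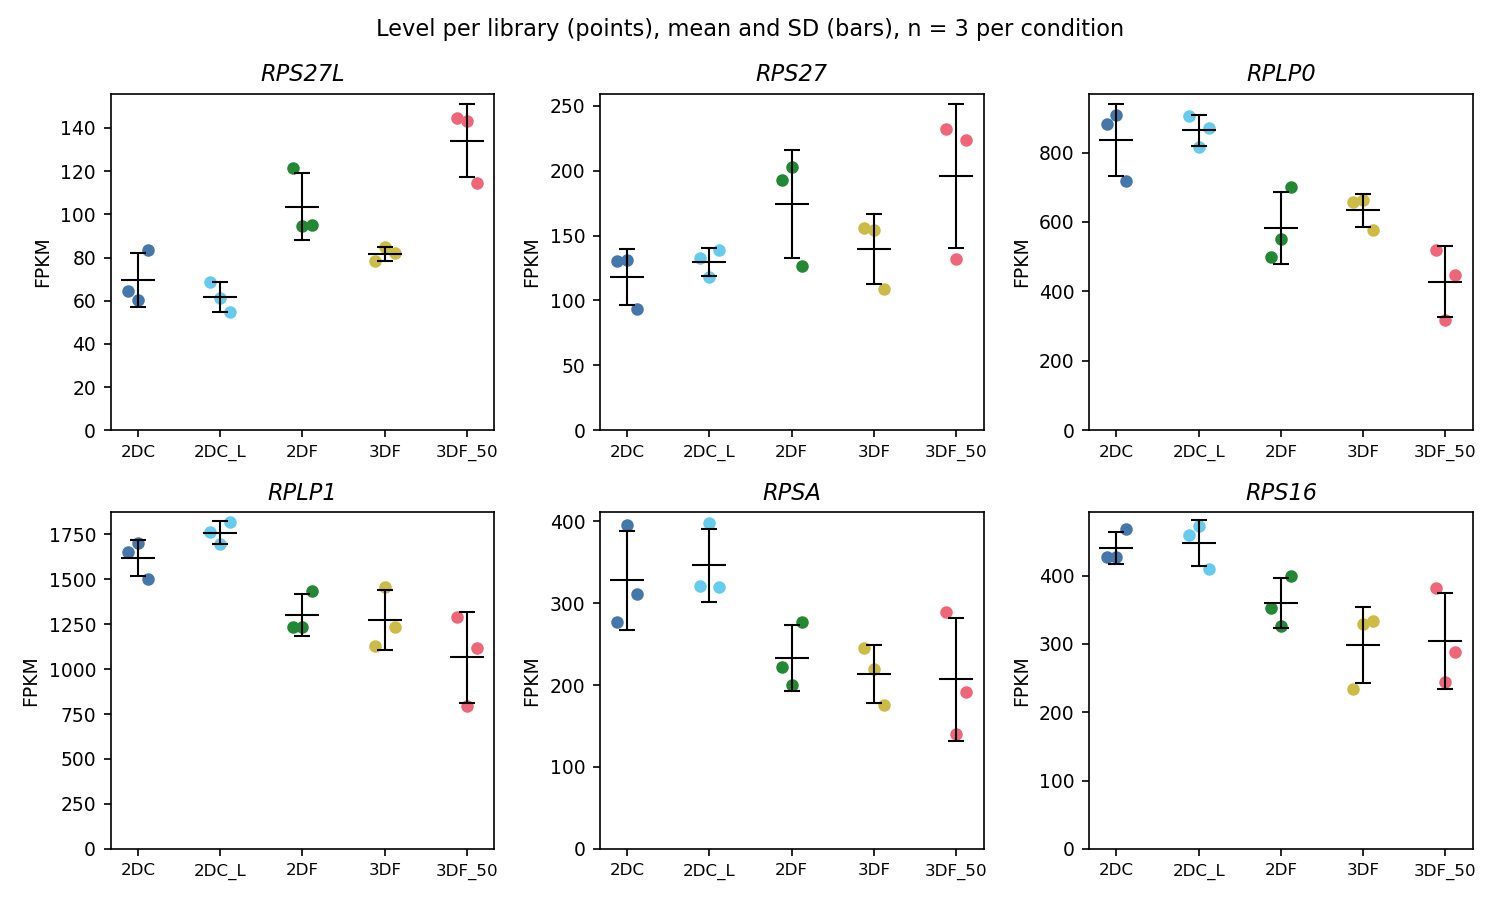
FPKM of 6 ribosomal protein genes in each library (points), with the mean and SD of each condition (bars, n = 3), on axes that start at 0. RPS27L is highest in 3DF_50 and does not overlap with 2DC_L, while RPLP0, RPLP1, RPSA and RPS16 lie below their 2DC_L levels in all 3DF_50 libraries. RPS27 overlaps between these conditions.

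One F test over the 5 conditions found 16 of 67 members different, where 41.8% of all genes were. Of the 16, 13 had their highest mean in 2DC_L and 12 their lowest in 3DF_50. RPS27L (edgeR adjusted p = 4.38e-05), RPLP0 (edgeR adjusted p = 0.00077) and RPLP1 (edgeR adjusted p = 0.00669) were among them. By library size alone 7 members differed.

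The paralogs were measured at very different levels from their main forms. RPL22L1 stood at 132% to 152% of RPL22 in the condition means of FPKM, and above RPL22 in each of the 15 libraries. The RPL22 row is a single block without an intron, and whether it is the transcribed main gene was not tested. RPL26L1 had 9.86% to 12.8% of RPL26, and RPL7L1, a relative of RPL7 that acts in assembly of the large subunit, had 6.08% to 9.46% of RPL7. RPL3L had 0.186% to 0.332% of RPL3. RPS27L had 47.7% of RPS27 in 2DC_L and 74.0% in 3DF_50, with SDs of 7.18% and 30.3%. RPL10L, known from testis, was at 0 throughout, and RPL39L, RPS4Y1 and RPS4Y2 were not analysed here. Among these paralogs RPS27L alone passed a test in any comparison. In 3DF_50 vs. 2DC_L, RPL22L1 was at −0.04, RPL7L1 at 0.12, RPL26L1 at −0.13 and RPL3L at −0.06, and by library size alone RPL22L1 was at 0.31.

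The paralogs also differed in how they followed the family from library to library. With the mean of each condition removed, the median correlation of a member with the mean of the other members was r = 0.79 over the 15 libraries, and 54 of 67 had an r above 0.5. The 5 tested paralogs had the 5 lowest values: RPL7L1 −0.51, RPL26L1 −0.20, RPS27L −0.12, RPL3L −0.10 and RPL22L1 0.03. The other members lay between 0.04 and 0.97, with a median of 0.81. Without 3DF_50 replicate 2 the median fell to 0.61, 40 members were above 0.5 and 10 below 0, and the paralogs lay between −0.56 and 0.087. The order was then lost, with 6 other members below 0 and RPS27L above them. These values are a description of 15 libraries that share depth, composition and scaling factor across members.

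**Figure D5:**
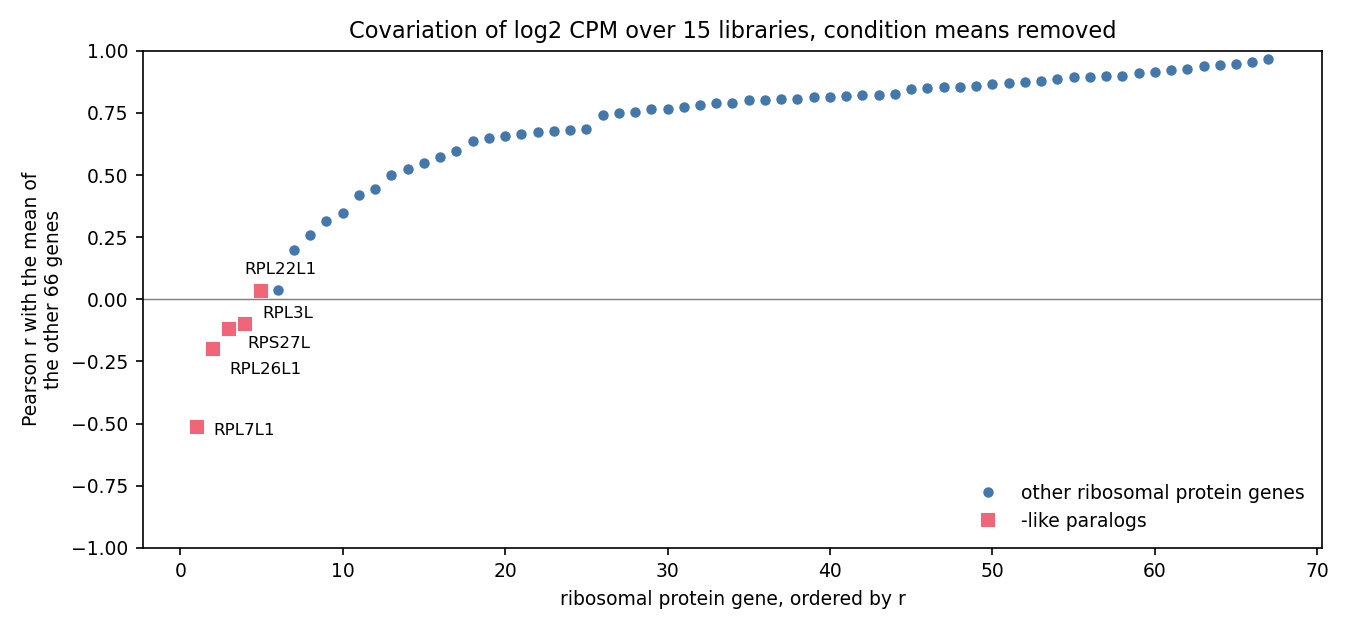
Pearson correlation of each tested ribosomal protein gene with the mean of the other 66, over the 15 libraries with condition means removed (log2 CPM after TMM), ordered by r. Squares mark the 5 paralogs, which hold the 5 lowest places at −0.51 to 0.03. Without 3DF_50 replicate 2 they do not hold these places.

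Other genes of the pathway were counted on lists of their own, and no list was tested against another. Factors of ribosome biogenesis, which process ribosomal RNA and assemble the subunits, passed as higher in 45 of 73 tested genes in 3DF_50 vs. 2DC_L and as lower in 0, against 20.8% and 22.1% of all genes (edgeR; 51 in either direction at an unadjusted p under 0.05), with a median of 0.33. RIOK1, a kinase of late small-subunit assembly, had the highest of these values at 1.17 (SE of 0.125, adjusted p = 6.6e-05 with edgeR), while NCL was at −0.09 and FBL at 0.01. In 2DF vs. 2DC, 9 of 74 were higher and 0 lower, against 6.73% and 7.63% of all genes (34 at an unadjusted p under 0.05), with a median of 0.26, and in 3DF vs. 2DC 1 was higher, with a median of 0.16. None passed in the other 3 comparisons.

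Proteins of the mitochondrial ribosome, a separate particle, passed as higher in 14 and as lower in 3 of 70 genes in 3DF_50 vs. 2DC_L, with a median of 0.08. In 2DF vs. 2DC, 3 of these 70 were higher, where 6.73% of all genes were. Translation factors had 7 higher and 8 lower of 40 in 3DF_50 vs. 2DC_L. The shares called were 24.3% and 37.5%, below the 42.9% of all genes. Among them EEF1A1, which delivers aminoacyl-tRNA and whose mRNA carries the same motif as the members, was at −0.85 (SE of 0.249, adjusted p = 0.02 with edgeR). TPT1 was at −0.27 (edgeR adjusted p = 0.18). RACK1, a scaffold on the small subunit, was at −0.46 (edgeR adjusted p = 0.0198), and FAU, a small-subunit fusion protein, was at 0.11. Of the unnamed ribosomal protein rows 2 were higher and 21 lower of 82, or 28.05%, with a median of −0.38.

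Regulators of growth and translation had 8 higher and 3 lower of 20 in 3DF_50 vs. 2DC_L, or 55% called. Of all genes 42.9% were called there, 20.8% as higher and 22.1% as lower. MDM2 was at 21.9, 24.4 and 22.8 FPKM in 2DC_L and at 45.7, 63.5 and 45.2 FPKM in 3DF_50, a log2 fold change of 1.16 (SE of 0.132, adjusted p = 9.5e-05 with edgeR). SESN2, a stress-induced inhibitor of MTOR signalling, was higher by 1.41 (SE of 0.168, adjusted p = 0.00013 with edgeR) and EIF4EBP1, a translation repressor under MTOR, was lower at −1.06 (SE of 0.13, adjusted p = 0.000158 with edgeR). SESN2 was also lower in 3DF than in 3DF_50 at −1.02 (edgeR adjusted p = 0.0393), but no gene passed in that comparison without 3DF_50 replicate 2. MYC, which drives transcription of ribosome genes, was higher in 2DF than in 2DC at 0.95 (SE of 0.221, adjusted p = 0.0232 with edgeR) and lower in 3DF than in 2DF at −0.96 (edgeR adjusted p = 0.0179). MYC was higher in 3DF_50 than in 2DC_L at 0.54 (edgeR adjusted p = 0.0041), where MTOR at 0.27 and LARP1 at 0.00 were not called. In 3DF vs. 2DF, SESN3 at 1.13 and DEPTOR at 1.54, both inhibitors of MTOR signalling, passed as higher, with DEPTOR at under 1 FPKM in every library.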

How the data were processed

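The deposited gene counts are whole reads per gene that the authors made by alignment to oryCun2 with HISAT2 2.0.5 and counting with featureCounts 1.5.0-p3. The deposited FPKM values are the authors' counts scaled by gene length and library size. Gene descriptions and coordinates were taken from the same table. RefSeq's list of another assembly was not used, and sequences were not analysed here.

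Counts were tested with the quasi-likelihood F test of edgeR 4.0.16 (R 4.3.3, two-sided, TMM). Rows passed filterByExpr at a minimum count of 10, each fit held the 2 conditions compared, and p-values were adjusted by Benjamini-Hochberg over all genes tested. The SE is the log2 fold change divided by the square root of F. Levels and plots used Python 3.11.15. Scripts were tested on counts simulated from 3DF and 2DC with 200 changed genes. There edgeR recovered 0.0% of genes changed by 0.5 log2 units and 57.5% of those changed by 1. Of 13493 genes 200 were changed there, while 2073 were called in the real 3DF vs. 2DC. The adjustment for many tests is stricter with few changed genes, so these rates are not those of the real fits. The other comparisons were not simulated. A missing call still does not show that a change of such size is absent. Replicates are separate libraries, and a p-value weighs a difference between conditions against the spread between libraries. Libraries of some conditions share a name prefix, and the main fits did not model this. The deposited depth per library, 14626982 to 31804255 counts, limits rows of few reads such as RPL3L.

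Named members were paralogs, 12 members with known roles, the 3 highest and lowest by mean FPKM and by fold change in each comparison, and called members with a |log2 fold change| from 1 upward. Genes of other lists were named by that threshold or as a fixed regulator. Some members are not reported by name here. Which members to name and which other lists to use were chosen with earlier results of these data known, while the family itself was set by symbol. A call is an adjusted p of 0.05 or less. Other settings were DESeq2 1.42.0, limma 3.58.1 with pseudocounts of 1 and 0.1 added to FPKM, other scalings and filters, all 5 conditions in 1 fit, blocks by replicate number and by library-name prefix, 1 library left out, and, chosen after seeing the data, all rows of a product summed.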

Additional observations from a re-analysis of the deposited data

How the results depend on the processing

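Most calls within the family were sensitive to the method. The counts in this section stand without the share of all genes called in the same fit, which can move with the setting too. They describe the settings and are not a result about the members alone. In 3DF vs. 2DC, where 2 members passed, DESeq2 called 5, library size only 1, library size without the 10 largest genes 1, summed rows 1, limma 0 with either pseudocount and 0 without a filter, the prefix block 0, and a fold limit 0. In 2DF vs. 2DC, with 4, DESeq2 called 9, all 5 conditions in 1 fit 2, limma 2 with log2(FPKM + 0.1), 0 with log2(FPKM + 1) and 0 without a filter, the prefix block 0, and the fold limit 0. In 3DF vs. 3DF_50, with 1, limma called 0 in its 3 forms, and the prefix block, the replicate block and the fold limit 0 each. In 3DF_50 vs. 2DC_L, with 22, the prefix block called 14, library size only 11 (9 higher), limma without a filter 9, and the fold limit 2. Over the 5 conditions, with 16, library size only gave 7 and limma without a filter 5.

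Leaving out 1 library gave 0 to 4, 0 to 11, 0 to 1, 13 to 31 and 9 to 19 calls in these 5 tests. In 3DF_50 vs. 2DC_L the low value, 13, and over the 5 conditions the 9, came without 2DC_L replicate 1. Medians of the members ranged over the same fits from −0.22 to −0.09 in 3DF vs. 2DC, −0.19 to −0.05 in 2DF vs. 2DC, −0.14 to 0.04 in 3DF vs. 2DF, −0.09 to 0.19 in 3DF vs. 3DF_50, −0.09 to −0.01 in 2DC vs. 2DC_L and −0.38 to −0.11 in 3DF_50 vs. 2DC_L.

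Library size only moved the median to 0.050 in 3DF vs. 2DC, −0.015 in 2DF vs. 2DC, 0.0043 in 3DF vs. 2DF, −0.11 in 3DF vs. 3DF_50, −0.047 in 2DC vs. 2DC_L and 0.10 in 3DF_50 vs. 2DC_L. It turned RPL29 to 0.018, RPL27 to 0.031 and RPL22L1 to 0.31 in the last. The prefix block gave medians of 0.35 in 2DF vs. 2DC, −0.45 in 3DF vs. 2DF and 0.0095 in 2DC vs. 2DC_L, and RPS12 at 0.27 in 2DF vs. 2DC. In the block fit, 2DF is tied to other conditions only through prefix E5, shared by 2DF replicate 1 and 3DF_50 replicate 2. Its values there rest on that pair, whose second library stood apart in the members. The causes of these shifts were not tested.

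The share of counts without the 10 largest genes was 2.13% for 2DC, 2.20% for 2DC_L, 1.86% for 2DF, 1.90% for 3DF and 1.81% for 3DF_50, and the share of summed FPKM was 5.14%, 5.28%, 4.70% and 4.81%, and 4.71% in 3DF_50. Among values of single named genes 1411 kept their side and direction, 154 lost and 11 gained a call, and 4 reversed. Replicate numbers paired the libraries only in part. Same-numbered libraries shared a prefix in 2DC vs. 2DC_L (E2 and E3) and in 3DF_50 vs. 2DC_L (E7). Their correlations of deviations were 0.30 and 0.08 in the first and 0.22 in the second. Within no comparison did every same-numbered pair have a correlation above 0.1, which does not exclude pairing of some, and the main fits held no block. With the replicate block 3, 4, 0, 0, 0 and 33 members passed in the 6 comparisons in the order of the plot of fold changes, and 15 over the 5 conditions. The shares of all genes called in these fits are not given here. Copies of near-identical sequence and rows with few reads limit RPL32, RPL38 and RPL3L at any depth.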
